A study of Mus musculus with 10 samples.

Results

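Crabp2 Cd55 cells are cells of the mouse supraspinatus tendon enthesis that carry transcripts of both Crabp2 and Cd55. They were picked from 3 droplet libraries by a gate on counted transcript molecules (unique molecular identifiers, UMIs). A cell entered when it had at least 500 detected genes, at most 10% mitochondrial counts, at least 2 UMIs of Crabp2 and at least 1 UMI of Cd55. It also had to hold 0 UMIs of Ptprc (leukocytes), Cdh5 (endothelium) and Tnmd (tendon cells). The gate found 367 of 13479 filtered cells, of which 59 came from postnatal day 11 (P11), 2 from P18 and 306 from P56. The levels of these 5 genes chose the cells, so they are described below and not tested.

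Crabp2 is a small cytosolic protein that binds retinoic acid and delivers it to nuclear retinoic acid receptors. Cd55 is a membrane protein that dissociates complement convertases and so shields a cell from complement attack. In joints, Cd55 protein is known from the fibroblasts that line the synovial cavity, where lining cells also make the lubricant proteoglycan Prg4. A tendon near its bone insertion is likewise surrounded by sheath and bursal tissue with a lining of fibroblasts.

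The enthesis is the tissue that joins a tendon to bone. Whole entheses came from wild-type C57BL/6 mice at P11, P18 and P56, with 1 library for each age. Per the labels' protocols, entheses were pooled, digested and freed of red cells, and cells that stained for neither the leukocyte protein Cd45 nor the dead-cell dye DAPI were sorted. A further 7 plates of 96 wells came from mice with Gli1CreERT and the Ai14 red reporter at 7 ages from P7 to P42, given tamoxifen at P5 and P7 (the wording on the plate sort leaves it unclear if only red fluorescent cells were taken).

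The droplet libraries held 44104990 (P11), 53725468 (P18) and 40082499 (P56) UMIs in 3263, 5588 and 5520 barcodes. No barcode belonged to Crabp2 Cd55 cells in more than 1 library. Between P11 and P56, 1 barcode of such a cell also occurred in the library of the other age. The P18 library stood apart, with 1587 leukocytes by marker transcripts despite the sort and only 2 Crabp2 Cd55 cells. Their summed UMIs came to 1161635 at P11, 25606 at P18 and 4818092 at P56, so that 1 UMI at P18 equalled 39.05 counts per 1000000 (CPM). A gene with 0 UMIs could still lie at up to 2.58, 117 or 0.623 CPM at these ages, the limit set by 3 UMIs. Since each age was 1 library, differences between ages carry no test, and the exact intervals given cover counting error only.

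Crabp2 and Cd55 were well above their minimums in most of the cells. Crabp2 had a median of 4 UMIs per cell at P11 (highest 35), 12.5 at P18 and 7 at P56 (highest 110), and 17, 1 and 47 cells sat at the minimum of 2. Cd55 had a median of 8, 14.5 and 19 UMIs per cell. Summed over the cells, Crabp2 was at 278, 976 and 706 CPM, and Cd55 at 639, 1133 and 1502 CPM. The 31 (P11) and 123 (P56) cells just outside the gate, with 1 UMI of Crabp2, had 293 and 1028 CPM of Slurp1, a gene described below. The 17 and 47 cells just inside had 189 and 1346 CPM of it. Crabp2 lies on chromosome 3 (87948666 to 87953376, plus strand) and Cd55 on chromosome 1 (130439027 to 130462744, minus strand) of GRCm38, in the GENCODE M21 annotation. A close copy, Cd55b, was at 0.861, 0 and 0.623 CPM in the cells, and how reads shared by the copies were counted is not given in the sources used here.

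Crabp2 was rare in endothelial cells and leukocytes, and more frequent in tendon cells. Of cells with at least 2 Tnmd UMIs, 7.70% (P11), 8.02% (P18) and 3.30% (P56) had at least 2 UMIs of Crabp2. These cells had 0 UMIs of Ptprc and Cdh5. Among cells with 0 UMIs of Ptprc, Cdh5 and Tnmd the shares were 6.52%, 0.485% and 11.4%. At least 2 UMIs of Crabp2 were found in 1 of 80 (P11), 0 of 9 (P18) and 6 of 381 (P56) endothelial cells, and in 1 of 304 and 3 of 1587 leukocytes at P11 and P18. Both gate minimums were met by 0, 0 and 5 of these endothelial cells. The counts of 0 allow shares of up to 3.75% of 80 and 33.3% of 9 cells. Cd55 was more widespread. At least 1 UMI of it was found in 23.8%, 11.1% and 21.3% of endothelial cells at P11, P18 and P56. In leukocytes the shares were 6.91% at P11 and 13.5% at P18. Of the fibroblasts compared below, 58.4%, 25.5% and 55.8% had a UMI of Cd55, at 280, 143 and 343 CPM in sum. The Crabp2 Cd55 cells were deeper than the fibroblasts compared below. Their median was 18790 UMIs at P11, 12803 at P18 and 14312 at P56, against 13895, 9589 and 6706 in the fibroblasts they are compared with below. That is 1.35, 1.34 and 2.13 times as many. Shares in cells thinned to equal depth are given below.

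The cells made up a larger share of the P56 library than of the P11 library, and were nearly missing at P18. Their share was 2.0% (59 of 2952, exact binomial 95% interval 1.52 to 2.57%) at P11, 0.0371% (2 of 5396, 0.00449 to 0.134%) at P18 and 5.96% (306 of 5131, 5.33 to 6.65%) at P56. Among cells with 0 UMIs of Ptprc and Cdh5 the shares were 2.43%, 0.0703% and 6.72%, in the same order of ages. When each cell was thinned to 2000 UMIs, the shares were 0.208% (0.0763 to 0.452%) at P11, 0.0197% (1 cell, 0.0005 to 0.11%) at P18 and 1.91% (1.55 to 2.33%) at P56. The intervals of the 3 ages did not overlap before thinning, whereas those of P11 and P18 overlapped after it. Age and library cannot be told apart.

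**Figure D1:**
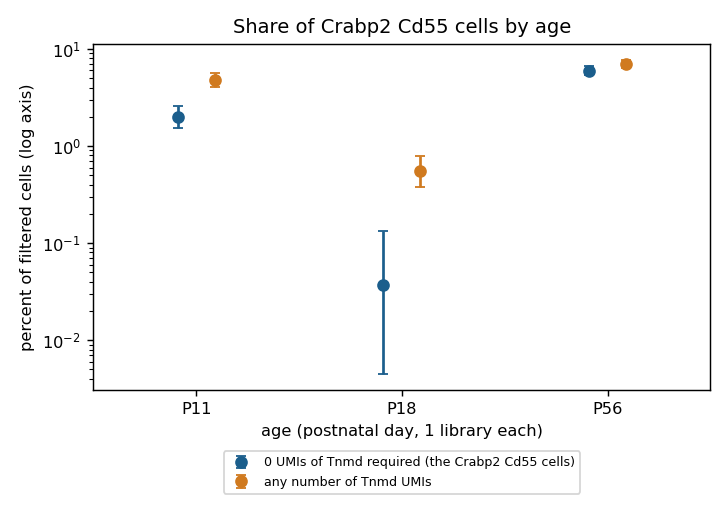
Share of Crabp2 Cd55 cells among filtered cells (log axis, exact binomial 95% intervals) at P11, P18 and P56, with the 0-Tnmd rule (blue) and with any number of Tnmd UMIs (orange). The blue share is 2.0%, 0.0371% and 5.96%, and dropping the Tnmd rule moves it to 4.84%, 0.556% and 7.02%.

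The share at the young ages depended on the Tnmd rule. Without it, 143 cells (4.84%) qualified at P11, 30 (0.556%) at P18 and 360 (7.02%) at P56. Of the 84 cells that the rule removed at P11, 62 had at least 10 Tnmd UMIs, as had 19 of 28 at P18, but only 3 of 54 at P56. The removed P11 and P18 cells carried tendon transcripts at high level: Col1a1 was at 67855 and 50824 CPM, against 6032 and 6327 CPM in the retained cells. Fmod, a tendon proteoglycan, was at 2960 and 1733 CPM in them, against 30.1 and 0 CPM. At P56 the removed cells had 2747 CPM of Col1a1 against 1500 CPM, so they stood closer to the retained ones. At least 1 UMI of Tnmd was also found in 18.8% of endothelial cells at P11 and in 15.7% at P56.

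Markers of other cell types were mostly at or near 0 in the Crabp2 Cd55 cells. All 8 mesothelial markers, among them Msln, Krt8 and Wt1, were at 0 at P11 and P18, and 6 of 8 were at 0 at P56. Keratinocyte markers summed to 0.861, 0 and 19.9 CPM, and the P56 value was nearly all Dsp, a desmosome protein found at 19.3 CPM in 16% of the cells. Krt5, Krt15 and Dsg3 were at 0 at every age. Endothelial markers summed to 6.03, 0 and 8.93 CPM, leukocyte markers to 12.1, 0 and 0.415 CPM, and osteoblast markers to 3.44, 0 and 1.25 CPM. The gate sets Cdh5 of the endothelial list and Ptprc of the leukocyte list to 0, so low sums of these lists follow in part from it. Chondrocyte markers summed to 108.5, 117 and 90.5 CPM, of which Sox9 made up 57.7, 39.05 and 65.0 CPM. Scx, the tendon transcription factor, was at 6.89, 0 and 41.5 CPM, and the 8 tendon markers summed to 695, 820 and 549 CPM. This list holds Tnmd, which the gate sets to 0. Perineurial markers summed to 265, 117 and 243 CPM, mural markers to 287.5, 78.1 and 191 CPM, glial markers to 14.6, 0 and 31.6 CPM, muscle markers to 3.44, 0 and 8.72 CPM, and erythroid markers to 4.30, 78.1 and 1.45 CPM. A doublet score marked 0, 0 and 4 of the cells.

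To find what sets the cells apart from fibroblasts without Crabp2, their summed UMIs were compared within each library with those of Pdgfra Dcn cells. These are filtered cells with at least 1 UMI of Pdgfra, at least 2 of Dcn and 0 of Crabp2, Ptprc, Cdh5 and Tnmd, 507 at P11, 263 at P18 and 1113 at P56. Pdgfra is a receptor and Dcn a proteoglycan common to fibroblasts. The gate of the Crabp2 Cd55 cells asks for neither gene. Both were left out of the test, and their levels in the Crabp2 Cd55 cells are not given here. The 3 genes besides Crabp2 and Cd55 that had been noted for the cells beforehand were part of the test reported below. Because they were noted beforehand, they are described here without its p-values. Uchl1, a ubiquitin hydrolase, was at 114.5, 78.1 and 530 CPM at P11, P18 and P56 in the Crabp2 Cd55 cells, against 71.2, 26.4 and 70.9 CPM. Perp, a membrane protein of desmosomes, was at 79.2, 0 and 113 CPM against 12.8, 5.13 and 4.77 CPM. Pgf, a placental growth factor of the VEGF family, was at 57.7, 0 and 180 CPM against 9.53, 7.70 and 18.0 CPM. Thus all 3 were above the comparison at P11 and P56, and Perp and Pgf had no UMI in the 2 cells of P18. At the single-cell level, 6 of 59 cells at P11 and 84 of 306 at P56 held UMIs of all 3, while 14 and 35 held none.

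Slurp1 and Anxa8 were among the genes that differed most. Slurp1, a small secreted Ly6 family protein of epithelia, was at 232, 547 and 1952 CPM at P11, P18 and P56, against 18.4, 11.0 and 228 CPM in Pdgfra Dcn cells. Slurp1 was higher in each of the 3 libraries, which was a condition for naming it. Its log2 difference was 3.50 (SE 0.36, adjusted p = 1.17e-20 by edgeR's quasi-likelihood test with Benjamini-Hochberg adjustment). Anxa8, an annexin, was at 749, 1953 and 1638 CPM against 169, 143 and 412 CPM (log2 difference 2.19, SE 0.33, adjusted p = 2.24e-09). All 3 ages of the Crabp2 Cd55 cells lay above all 3 of the other cells for Anxa8. Both genes remained past the threshold when any 1 of the 3 libraries was left out. With Tnmd-bearing cells kept in the gate, the call of Slurp1 ended (log2 difference 4.69, adjusted p = 0.0543), while that of Anxa8 held (1.96, adjusted p = 0.0135). The Tnmd-bearing cells so added had 333, 3786 and 968 CPM of Slurp1 at P11, P18 and P56. Pdgfra Dcn cells with Tnmd were still left out, so such cells were added on 1 side only.

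Of 10574 genes tested, 426 (4.03%) were higher and 1092 (10.3%) were lower in Crabp2 Cd55 cells, which is 14.4% of genes in either direction. The plot of 23 genes by library shows the 20 with the largest rise among those that were higher in 3 of 3 libraries, which was a condition for naming them. Transport proteins among them were the water channel Aqp1 (635, 352 and 887 CPM against 210, 52.4 and 167 CPM, log2 difference 1.83), the calcium-activated chloride channel Ano1 (61.1, 234 and 174 against 12.7, 18.3 and 26.9 CPM, 2.37) and the lactate carrier Slc16a3 (85.2, 78.1 and 80.7 against 15.1, 16.5 and 22.7 CPM). Secreted proteins or protease inhibitors were suprabasin Sbsn (312.5, 508 and 827 CPM against 102, 86.2 and 164 CPM, log2 difference 1.77), the cystatin Cst6 (7.75, 39.05 and 98.8 CPM against 1.50, 2.20 and 13.1 CPM) and the serpin Serpinb7 (52.5, 234 and 52.3 CPM against 15.2, 5.87 and 14.4 CPM). Cdh13, a cadherin held by a lipid anchor, was at 412, 976 and 699 CPM against 140, 64.9 and 240 CPM (log2 difference 1.78). Ackr2, a receptor that scavenges inflammatory chemokines, was at 89.5, 390.5 and 202 CPM against 22.5, 10.3 and 47.8 CPM (2.12).

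**Figure D2:**
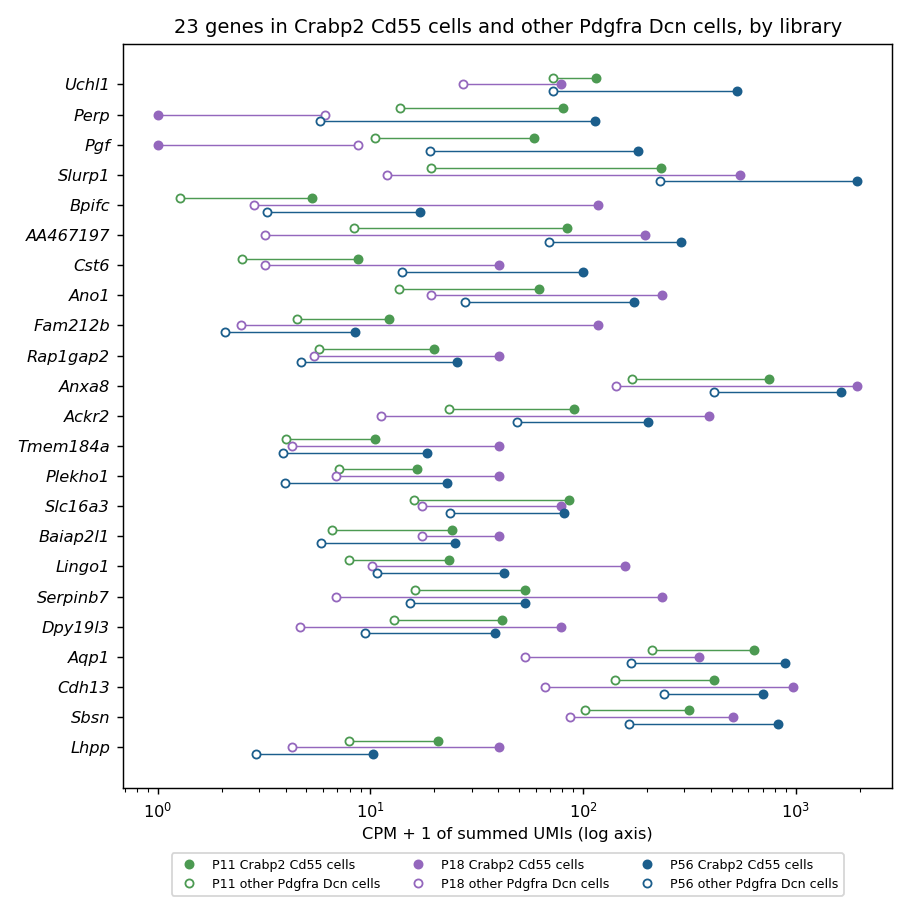
CPM + 1 of UMIs summed over Crabp2 Cd55 cells (filled) and Pdgfra Dcn cells (open) on a log axis, joined within each library. Shown are 3 markers given beforehand and the 20 genes with the largest tested rise, which were picked from genes higher in all 3 libraries. Slurp1 lies at 232, 547 and 1952 CPM against 18.4, 11.0 and 228 CPM; Perp and Pgf are at 0 CPM in the 2 cells of P18.

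The remaining genes of the 20 were AA467197 (82.6, 195 and 288 CPM against 7.35, 2.20 and 68.5 CPM), Bpifc, Fam212b, Rap1gap2, Tmem184a, Plekho1, Baiap2l1, Lingo1, Dpy19l3 and Lhpp. Slurp1 was also seen cell by cell: 44.1% of the P11 and 91.5% of the P56 Crabp2 Cd55 cells had a UMI of it, against 8.28% and 22.6% of Pdgfra Dcn cells and 0% (0 of 80) and 6.04% of endothelial cells. After thinning to 2000 UMIs the shares were 22% and 77.7% in Crabp2 Cd55 cells. Aqp1 and Cdh13 are also genes of endothelium, and 66.9% and 62.7% of P56 endothelial cells had a UMI of them. The endothelial markers were near 0 in the Crabp2 Cd55 cells as given above, but the gate removes cells with Cdh5. Where these transcripts came from was not tested.

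The fit rests on few libraries. It left 2 residual degrees of freedom, and edgeR took each gene's spread from the trend over all genes, so the p-values measure the spread between these 3 libraries as borrowed across genes. Without P56, 44 genes were higher and 233 lower, and the calls of Aqp1, Cst6 and Sbsn were lost. Without the 2 cells of P18 the counts were 350 and 784.

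Genes lower in the Crabp2 Cd55 cells were led by genes of cartilage and bone. Col2a1, the collagen of cartilage, was at 23.2, 78.1 and 0.208 CPM against 8732, 20070 and 75.5 CPM, a log2 difference of -8.70 (SE 0.60, adjusted p = 9.67e-44). Scrg1, known from chondrogenesis, had no UMI in the cells and 75.0, 304 and 6.32 CPM in Pdgfra Dcn cells, which at P11 is at least 29.0-fold lower against a floor of 3 UMIs. The bone matrix genes Ibsp and Bglap had 1 UMI each in all Crabp2 Cd55 cells, and Spp1 was at 4.30, 39.05 and 5.40 CPM against 267.5, 1833 and 443 CPM. Pdgfra Dcn cells held chondrocyte markers at 10190, 24030 and 162 CPM and osteoblast markers at 269, 3048 and 72.0 CPM in sum. With Pdgfra Dcn cells restricted to those with 0 Col2a1 UMIs (272, 100 and 1105 cells), 424 genes were higher and 1017 lower.

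The other genes among the 10 largest falls were Ccl11, Dpep1, Dlk1, Susd5 and Smoc1. Ccl11, the eosinophil chemokine eotaxin, was at 0.861, 0 and 2.70 CPM against 72.5, 88.4 and 357 CPM (log2 difference -7.20). Dpep1, a membrane dipeptidase, was at 0, 0 and 0.830 CPM against 7.48, 27.5 and 71.9 CPM, and Dlk1, a Notch-related surface protein, was at 11.2, 0 and 0.830 CPM against 655, 734 and 8.94 CPM. Susd5 was at 0, 0 and 0.208 CPM against 57.6, 161 and 5.72 CPM, and Smoc1, a secreted calcium-binding matrix protein, at 1.72, 0 and 0 CPM against 54.7, 137 and 4.29 CPM.

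Markers of the synovial lining did not mark the cells as a whole. Of the 10 listed genes 8 were tested, with 1 higher (Tspan15), 2 lower (Prg4 and Sema5a) and 5 not called; their median log2 difference was -0.28, against -0.04 over all genes tested. Prg4 was at 681, 1133 and 1215 CPM in Crabp2 Cd55 cells against 2231, 7138 and 4280 CPM (log2 difference -2.40, SE 0.39, adjusted p = 3.57e-08). That call ended when Pdgfra Dcn cells with any Col2a1 UMI were left out (log2 difference -0.12, adjusted p = 0.90). Clic5, a channel-related protein of lining cells, was at 126.5, 0 and 106 CPM against 49.4, 0 and 129 CPM. Creb5, a transcription factor linked to Prg4 expression, was at 218, 156 and 407 CPM against 289, 131 and 267 CPM, and neither gene passed the test. Tspan15 was at 60.3, 78.1 and 77.2 CPM against 34.2, 1.83 and 43.6 CPM, with a log2 difference of 0.71 (adjusted p = 0.0475). Of the alternatives run, it passed only with a Crabp2 minimum of 1 or with doublets removed, and its difference was -0.04 with a Crabp2 minimum of 4. The cells are therefore named by their gate genes and not as lining cells.

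A minority of the cells carried the lining genes together. Cells with at least 20 Prg4 UMIs numbered 3 at P11, 0 at P18 and 63 at P56, and held 84.3% and 83.6% of the Prg4 UMIs of the Crabp2 Cd55 cells at P11 and P56. In the 3 P11 cells, Clic5 was at 1518 CPM, Htra4 at 2506 CPM, Hbegf at 3712 CPM and Tspan15 at 676 CPM, against 0.939, 1.88, 16.9 and 4.69 CPM in the other 56. These levels came mostly from 1 cell, which held 144 UMIs of Clic5, 218 of Htra4, 352 of Hbegf and 50 of Tspan15, while another of the 3 held 0, 1, 1 and 0. At P56 the 63 cells had 276 CPM of Clic5 against 53.0 CPM in the other 243, and 1018 CPM of Hbegf against 113 CPM. UMIs of at least 3 of these 4 genes were found in 2 of 59 cells (3.39%, exact binomial 95% interval 0.413 to 11.7%) at P11 and in 41 of 306 (13.4%, 9.79 to 17.7%) at P56, of which 2 and 22 had at least 20 Prg4 UMIs. Of the 63 P56 cells with at least 20 Prg4 UMIs, 12 had no UMI of these 4 genes and 16 had UMIs of 1 of them. At least 1 UMI of Prg4 was also found in 10.0% (P11) and 39.4% (P56) of endothelial cells. Slurp1 did not follow Prg4: it was at 1661 CPM in the 63 cells and 2042 CPM in the 243. This split was made after the values were seen and carries no test. With the cells of at least 20 Prg4 UMIs left out, 371 genes were higher and 1036 lower than in Pdgfra Dcn cells in all.

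**Figure D3:**
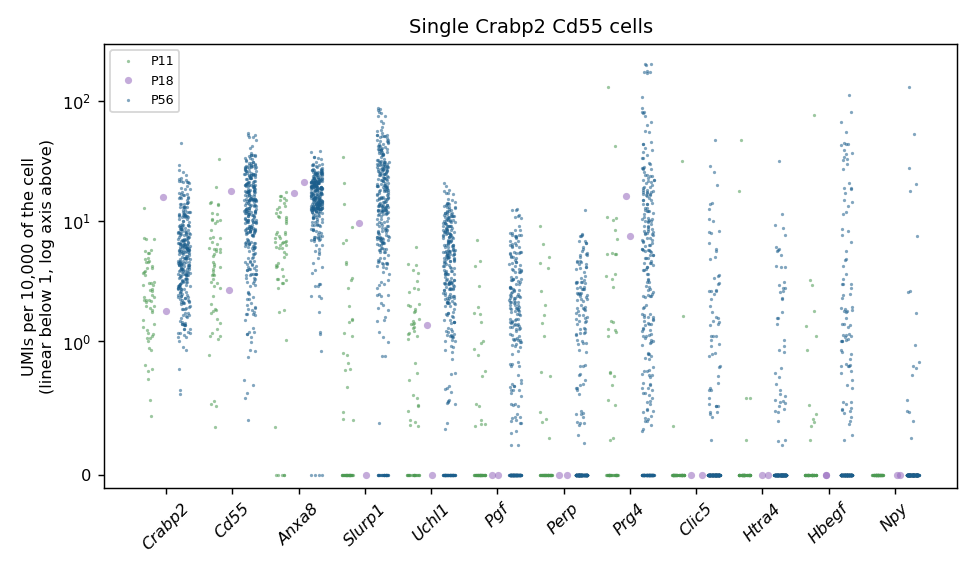
UMIs relative to all UMIs of the cell (linear below 1, log axis above) for 12 genes in each Crabp2 Cd55 cell at P11 (59 cells), P18 (2 cells) and P56 (306 cells). Anxa8 is found in 91.5% and 98.7% of the P11 and P56 cells, whereas Clic5, Htra4, Hbegf and Npy are at 0 in most cells and high in a few.

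Genes of the tendon sheath were divided. Tppp3, a tubulin-binding protein used as a marker of the sheath and paratenon, was at 2049, 1601 and 3040 CPM in the cells against 1071, 329 and 1116 CPM (log2 difference 1.13, SE 0.35, adjusted p = 0.0131). S100a4 was higher too (log2 difference 1.18). Prg4 and the hyaluronan synthase Has1 were lower (Has1 at 151, 78.1 and 312 CPM against 213, 113 and 1119 CPM). So 2 of the 4 tested sheath genes were higher and 2 lower. The calls of Tppp3 and S100a4 ended when P11 or P56 was left out, or when cells were thinned to 2000 UMIs. That of Tppp3 also ended with a Crabp2 minimum of 4, and that of Has1 without P56. Both Tppp3 and Has1 lost their calls with Tnmd-bearing cells kept in the gate.

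Markers of sublining or universal fibroblasts also split. Thy1, a surface glycoprotein of perivascular and sublining fibroblasts, was at 489, 586 and 182 CPM against 261, 60.9 and 96.1 CPM (log2 difference 1.06). Dpt, Col14a1, the chemokine Cxcl12 and the WNT antagonist Sfrp1 were lower. Cxcl12 was at 25, 0 and 6.02 CPM against 136, 75.2 and 127 CPM (log2 difference -3.68), and Sfrp1 at 4.30, 0 and 3.53 CPM against 74.0, 68.9 and 83.7 CPM (-4.65). Cd34, Ly6a, Clec3b and Dpp4 did not pass the test, with log2 differences from 0.02 to 0.56. Thus 1 of 9 tested genes was higher, 4 lower and 4 not called. Col14a1 was at 612, 469 and 86.1 CPM against 804, 389 and 284 CPM, not lower at P18, and its call ended with DESeq2 or with any 1 library left out. That of Dpt ended without P56 and with DESeq2. The call of Thy1 held without P18 but ended without P11 or P56, in thinned cells and with DESeq2.

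Apart from Crabp2 itself, none of 14 tested genes of the retinoid pathway was higher by edgeR. At an unadjusted p under 0.05 the count of higher genes was also 0, and DESeq2 gave 0. In the same list 5 genes were lower and 9 not called, with a median log2 difference of -0.55. The lower genes included the retinol carrier Rbp4, the retinaldehyde reductase Dhrs3, and Aldh1a1 and Aldh1a2, enzymes that make retinoic acid. Rbp4 was at 5.17, 0 and 4.98 CPM against 98.9, 624.5 and 24.9 CPM (log2 difference -3.48). The receptor genes Rarb, Rarg, Rxra and Rxrb did not pass, and Rarg was at 59.4, 117 and 58.1 CPM against 46.1, 73.0 and 45.3 CPM. Stra6, a membrane receptor for the retinol carrier, was too low at P11 and P18 to be tested (1.72 and 0 CPM) but was at 40.5 CPM in 25.8% of the P56 cells, against 5.72 CPM in 2.70% of Pdgfra Dcn cells. When P11 or P18 was left out it could be tested and was called higher. Without P56, Rbp4 stayed lower, while the calls of Dhrs3, Aldh1a1 and Aldh1a2 were lost.

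Complement genes other than Cd55 were mostly lower. Of 11 tested, Cd59a, which blocks the membrane attack complex, was higher (15.5, 0 and 23.3 CPM against 4.90, 7.70 and 7.51 CPM, log2 difference 1.38), and 8 were lower. The lower genes included the components C3, C4b, C1s1, C1ra and Cfb and the regulators Serping1 and Clu. C3 was at 0, 0 and 17.4 CPM against 27.6, 19.8 and 311 CPM (log2 difference -4.52), and C4b at 6.03, 0 and 25.3 CPM against 78.2, 81.4 and 286 CPM (-3.77). The list's median log2 difference was -2.90. Without P56 the call of Cd59a was lost, and C1s1, C3, C4b and Clu stayed lower, while the calls of Serping1, C1ra and Cfb were lost.

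The hyaluronan list was divided. Ugp2, which makes UDP-glucose, was at 765, 195 and 1132 CPM against 337, 141 and 249 CPM (log2 difference 1.16). The hyaluronan receptor Cd44 was at 718, 156 and 755 CPM against 305, 99.0 and 294 CPM, and the proteoglycan Vcan at 805, 390.5 and 1169 CPM against 493, 160 and 312 CPM. Has1, Prg4, the cross-linker Tnfaip6 and the link protein Hapln1 were lower, which makes 3 higher and 4 lower of 11 tested. Has2 and Ugdh did not pass. DESeq2 did not call Ugp2, Cd44 or Vcan, nor were they called without P11 or without P56. In thinned cells Ugp2 and Cd44 were called. The calls of Has1 and Tnfaip6 ended without P56 and with Tnmd-bearing cells kept in the gate. That of Prg4 ended when Pdgfra Dcn cells with any Col2a1 UMI were left out.

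Among signalling genes, 3 of 14 tested in the BMP list were higher and 7 lower. There, Bmp4 was at 250, 352 and 397 CPM against 109, 63.8 and 120 CPM (log2 difference 1.34, SE 0.28, adjusted p = 4.67e-05). Bmp6 was at 54.2, 0 and 156 CPM against 18.2, 9.17 and 24.0 CPM (1.96), and the BMP antagonist Nog at 14.6, 0 and 42.1 CPM against 4.90, 6.60 and 7.15 CPM (1.95). The BMP response genes Id1, Id2 and Id3 were lower, Id3 at 395, 117 and 186 CPM against 1116, 1424 and 1093 CPM (-2.58). Bmp5, Gdf10, Fst and Bambi completed the lower ones. Without P56, Bmp6 alone stayed higher, and Gdf10, Id1 and Id3 lower. Because the 2 cells of P18 had no UMI of Bmp6 or Nog, those values rest on P11 and P56.

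In the WNT list 3 of 14 tested genes were higher and 6 lower. The ligands Wnt2 (85.2, 0 and 156 CPM against 26.0, 8.80 and 28.3 CPM, log2 difference 1.89) and Wnt9a (37.9, 0 and 83.9 CPM against 13.6, 11.4 and 24.8 CPM, 1.40) and the secreted modulator Sfrp4 (138, 0 and 226 CPM against 70.5, 14.3 and 57.6 CPM, 1.25) were higher. Wnt5a, Sfrp1, Sfrp2, Dkk2, Wif1 and Tcf7l2 were lower. The call of Wnt2 ended without P56, that of Wnt9a without P11 and that of Sfrp4 without either. Of 6 tested Hedgehog genes Gli2, Ptch1 and Smo were lower. Without P18, without P11, in thinned cells and with DESeq2 0 of them were called, and without P56 Ptch1 alone was. Gli1 was at 0.861, 0 and 3.11 CPM against 7.76, 12.8 and 3.34 CPM without passing the test. In the Notch list 1 of 5 tested genes, Hes1, was lower, and its call ended without P18, without P11, in thinned cells and with DESeq2. Of 15 tested transcription factors of joints and lining, 5 were lower (Foxc1, Osr1, Runx1, Meox1 and Klf5) and 0 higher by edgeR, at an unadjusted p under 0.05 and by DESeq2. Without P56 only Runx1 stayed lower. In cells thinned to 2000 UMIs 1 of 12 tested factors, Foxd1, was called higher and 4 were lower.

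In the basement membrane and protease lists genes were lower or not called, and 0 were higher by edgeR, at an unadjusted p under 0.05 or by DESeq2. Of 15 basement membrane genes tested 7 were lower, among them Nid1 (297, 117 and 42.1 CPM against 550, 269 and 233 CPM, log2 difference -1.87), Lama2, Lamb1, Col4a1 and Col4a2. Of 18 proteases and inhibitors tested 11 were lower, including Mmp2, Mmp3, Adamts1, Adamts5 and Timp3. Without P56, 0 genes of either list were called. Of 8 fibrillar collagens tested Col2a1 and Col11a1 were lower, and the major ones did not pass: Col1a1 was at 6032, 6327 and 1500 CPM against 7518, 8330 and 1723 CPM, and Col3a1 at 13580, 11790 and 3924 CPM against 14880, 6798 and 2300 CPM. In the cell junction list Cdh13 and Perp, the latter noted beforehand, were higher of 10 tested. Cdh11, a cadherin of synovial fibroblasts, was at 48.2, 0 and 5.6 CPM against 48.9, 31.2 and 18.7 CPM, and its call as lower ended without P18, without P56, in thinned cells and with DESeq2. In the VEGF and angiogenic factor list Nrp1, Angpt1, Angptl1, Angptl4 and Angptl7 were lower of 12 tested, and Pgf, noted beforehand, was higher. Without P56 0 of the lower genes were called, and with Tnmd-bearing cells kept in the gate Angpt1 alone was.

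Inflammatory and early response transcripts were lower in the Crabp2 Cd55 cells. Of 16 chemokines, cytokines and prostaglandin genes tested, 10 were lower and 2 higher, with a median log2 difference of -1.55. Il6 was at 0, 0 and 7.89 CPM against 38.5, 2.93 and 231 CPM (-5.23), and Ptgs2, the inducible cyclooxygenase, at 13.8, 0 and 12 CPM against 30.9, 29.3 and 193 CPM (-3.36). Ptgs1, the constitutive cyclooxygenase, was higher (147, 312 and 148 CPM against 61.6, 38.5 and 54.2 CPM, log2 difference 1.29). The other higher gene, Il11, changed direction without P56 (log2 difference -1.07), where only Cxcl12 and Ccl11 stayed lower.

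Of 15 immediate-early and dissociation stress genes 12 were lower and 0 higher by edgeR (0 higher also at an unadjusted p under 0.05 and by DESeq2), with a median log2 difference of -1.79. Fos was at 637, 39.05 and 667 CPM against 2925, 4090 and 1436 CPM, and Zfp36, which destabilises cytokine mRNAs, at 107, 0 and 80.5 CPM against 675, 642 and 453 CPM (-2.98). The heat shock genes Hspa1a and Hspa1b and Jund did not pass. Between 10 and 13 of these genes were lower with any library left out, with DESeq2, in thinned cells and with either added restriction on the cells compared. Without the library term, which sets the cells of each library against their own neighbours, 1 was. Both sets of cells came from the same digests, and the cause of the difference was not tested.

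**Figure D4:**
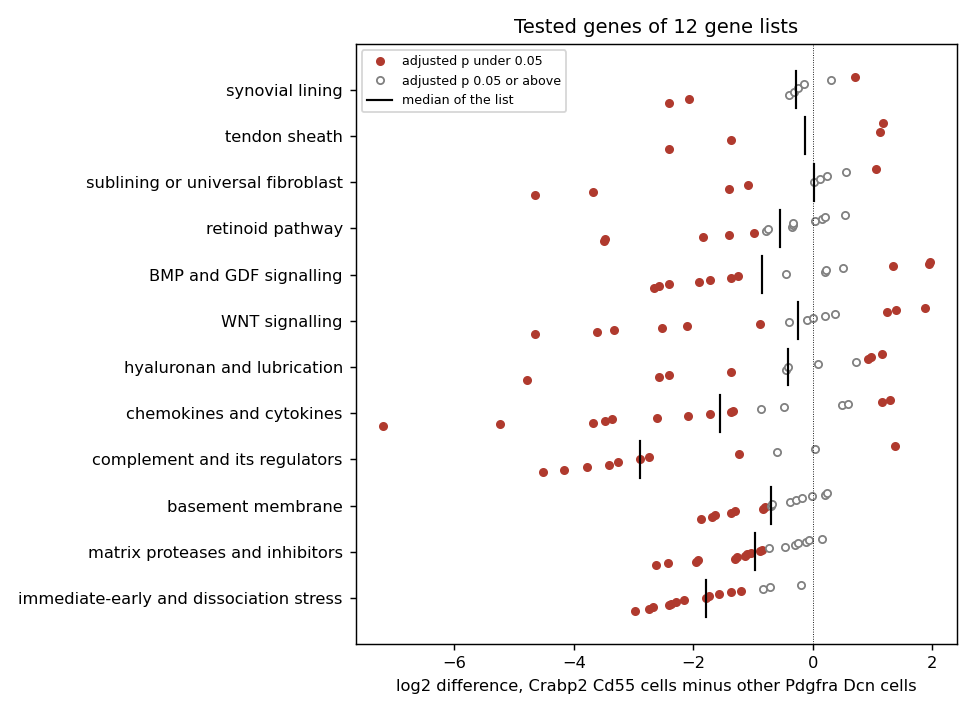
Log2 difference of each tested gene in 12 gene lists, Crabp2 Cd55 cells minus Pdgfra Dcn cells, with filled points for adjusted p under 0.05 and a bar at each list's median. The lowest medians are those of complement (-2.90), immediate-early genes (-1.79) and chemokines (-1.55), while the medians of the synovial lining and tendon sheath lists are -0.28 and -0.12.

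Cell cycle genes were called through a handful of cells. Mki67, Top2a and Birc5 were higher among 12 tested, but the UMIs of Mki67 came from 4 cells at P11 and 2 at P56. With cells of at least 20 Prg4 UMIs left out, 0 of the 12 were called by edgeR, and DESeq2 called 0 with those cells kept.

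Against fibroblasts with Pi16, a marker of the progenitor-like adventitial kind, 4 lining genes were higher and 1 was lower. There were 92, 77 and 265 such cells with at least 1 UMI of Pi16 and 0 of Crabp2, Ptprc, Cdh5 and Tnmd. Of 8433 genes tested, 221 (2.62%) were higher in the Crabp2 Cd55 cells and 528 (6.26%) lower, 8.88% in all. Clic5 (126.5, 0 and 106 CPM against 1.37, 0 and 9.46 CPM, log2 difference 4.22), Tspan15 (3.38), Hbegf (2.26) and Htra4 (1.91) were higher, 4 of 7 tested lining genes. Sema5a was lower and 2 were not called. The list's median log2 difference was 1.91 against -0.05 over all genes tested. At P11, 1 cell held 144 UMIs of Clic5, 218 of Htra4 and 352 of Hbegf, and at P18 these genes had no UMI. Prg4 was at 222, 37.2 and 2084 CPM in Pi16 cells and did not pass (adjusted p = 0.0513). Slurp1 (log2 difference 4.70), Aqp1 (3.92), Anxa8 (2.96) and Bmp4 (1.53) were higher here as well; both comparisons use the same Crabp2 Cd55 cells. The Pi16 cells of P18 carried leukocyte markers at 7885 CPM in sum, although Ptprc itself was at 0. Without P18, 375 genes were higher and 624 lower. Without P56, 17 and 73 were called, and without P11, 33 and 207.

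Against tendon cells with at least 2 Tnmd UMIs (1110, 411 and 1122 cells), 664 of 10752 genes (6.18%) were higher and 1282 (11.9%) lower, 18.1% in all. All 7 tested tendon markers were lower in the Crabp2 Cd55 cells, Fmod by a log2 difference of -6.87 and Scx by -4.20. The gates split these sets of cells by Tnmd, so lower tendon genes follow from the choice of cells and are no separate result. Col1a1 was lower as well (log2 difference -3.69). Slurp1, Sbsn, Ackr2 and Aqp1 were higher (3.52, 3.55, 5.32 and 2.06), as were the fibroblast markers Ly6a (2.55) and Cd34 (2.35). Of 9 tested sublining or universal genes, 4 were higher (Dpp4, Thy1, Cd34 and Ly6a), 2 lower (Cxcl12 and Sfrp1) and 3 not called. Of 9 tested lining genes, 5 were higher (Clic5, Tspan15, Htra4, Hbegf and Creb5), 2 lower (Prg4 and Col22a1) and 2 not called. Sets without P56 gave 296 higher and 569 lower genes, and sets without P18 gave 369 and 640.

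Slurp1, Anxa8, Sbsn and Aqp1, which were chosen for their high levels in these cells, were counted cell by cell without matching depth. All 4 had a UMI in 21 of 59 cells (35.6%) at P11 and in 243 of 306 (79.4%) at P56, and 1 cell at each of these ages had none. Of the 2 P18 cells 1 held all 4 and 1 held 3. Anxa8 was found in 91.5% of P11 and 98.7% of P56 cells and Tppp3 in 100% of both. Perp and Pgf were patchier, in 27.1% and 33.9% of P11 cells and in 36.0% and 57.5% of P56 cells.

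Across ages, the cells of P56 differed from those of P11 in a small share of genes. Among 6220 genes with at least 100 UMIs over the 3 libraries, 21 (0.338%) were at least 4-fold higher and 18 (0.289%) at least 4-fold lower at P56 with P18 between. With P18 not used, the counts were 80 (1.29%) and 51 (0.820%). Slurp1 was 8.43-fold higher at P56 (1952 CPM, exact Poisson 95% interval 1912 to 1991) than at P11 (232 CPM, 205 to 261). In Pdgfra Dcn cells it was 12.4-fold higher, so its level differed between these libraries there too. Cst6 was 12.8-fold and the chaperone Clu 9.79-fold higher at P56 in the Crabp2 Cd55 cells. Mt2, a metallothionein, was 7.14-fold higher, and 7.91-fold in Pdgfra Dcn cells.

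Genes with no UMI at P11 or P18 appeared at P56. Edn2, the vasoconstrictor peptide endothelin 2, was at 48.4 CPM (42.4 to 55) in 15.7% of the P56 cells, at least 18.7-fold above a floor of 3 UMIs at P11. It was at 2.15 CPM in Pdgfra Dcn cells of P56. Mal, a membrane raft protein of epithelia and glia, was at 35.5 CPM in 18.6% of the cells (at least 13.7-fold), against 1.55 CPM. S100g, a calcium-binding protein, was at 30.1 CPM (at least 11.7-fold), but was at 56.4 CPM in Pdgfra Dcn cells. Npy, neuropeptide Y, reached 170 CPM (at least 65.7-fold), yet 19 cells (6.21%) held its 817 UMIs and 1 of them 576.

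Genes that were lower at P56 were largely lower in Pdgfra Dcn cells as well. Itm2a, a membrane protein of differentiating mesenchyme, was at 708, 234 and 17.0 CPM at P11, P18 and P56, 41.6-fold higher at P11 than at P56, and 14.7-fold in Pdgfra Dcn cells. The growth factor Ptn was 21.3-fold (14.6-fold in Pdgfra Dcn cells), C1qtnf6 12-fold, Nrep 9.99-fold, Marcks 8.79-fold and Col14a1 7.11-fold higher at P11. H19, an imprinted growth-linked RNA, was at 227 CPM at P11 and had no UMI at P18 and P56. Col1a1 was at 6032 CPM at P11 and 1500 CPM at P56. Xist, made from the inactive X chromosome of females, was found in 48 of 59 cells at P11, 2 of 2 at P18 and 0 of 306 at P56. In Pdgfra Dcn cells the shares were 80.5%, 29.7% and 0.359%. Age and this difference between the pools of animals cannot be told apart.

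**Figure D5:**
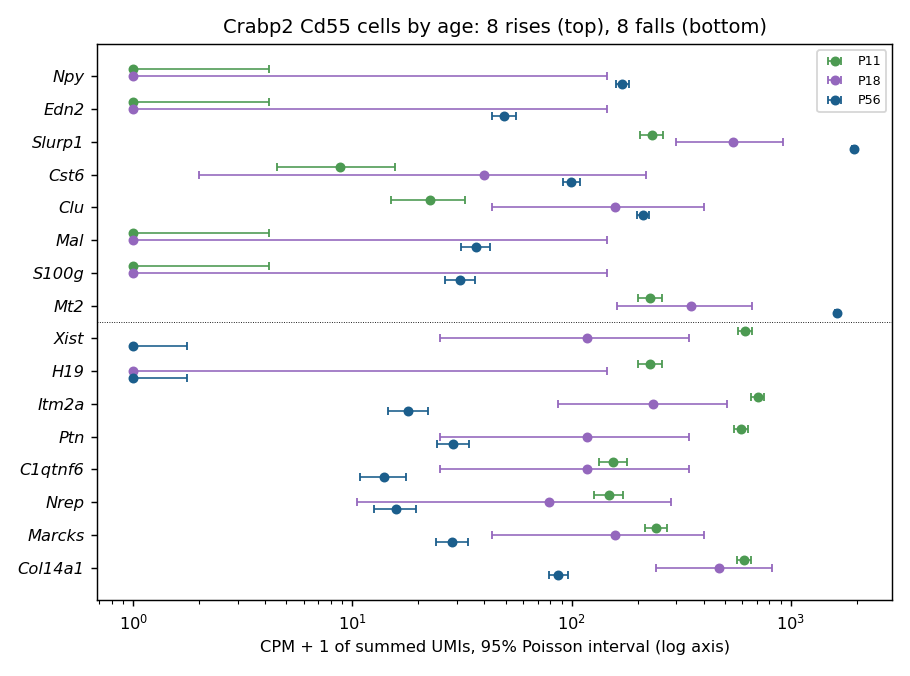
CPM + 1 of UMIs summed over Crabp2 Cd55 cells at P11, P18 and P56 on a log axis with exact Poisson 95% intervals, for the 8 genes with the largest rise (top) and the 8 with the largest fall (bottom) from P11 to P56. The P18 intervals are wide because 2 cells held 25606 UMIs in all; Slurp1 goes from 232 to 547 to 1952 CPM and Itm2a from 708 to 234 to 17.0 CPM.

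With P18 not used, the complement genes Clu and C4b were at least 4-fold higher at P56 and 4 of 12 basement membrane genes (Col15a1, Lama4, Nid1 and Nid2) at least 4-fold lower, beside 1.29% and 0.820% of all genes compared. Stra6 was at 1.72 CPM at P11 and 40.5 CPM at P56, and Uchl1 at 114.5 and 530 CPM, against 71.2 and 70.9 CPM of Uchl1 in Pdgfra Dcn cells.

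Very few Gli1-lineage wells carried the gate genes. Of 672 wells, 31 had a count of Crabp2 and 72 of Cd55, 7 had both, and 2 had both with 0 counts of Ptprc, Cdh5 and Tnmd (1 at P14 and 1 at P42). The plates were shallow, with medians of 2194.5 (P28) to 4848.5 (P14) counts per well against 12803 to 18790 UMIs in the droplet cells. Cd55 was found in 22.6% of wells with Crabp2 and in 10.1% of wells without it, and Uchl1 in 19.4% and 5.15%. Of the 7 wells with both Crabp2 and Cd55, 5 were on the P11 plate (5 of 13 wells with Crabp2 against 5 of 83 without), and Cd55 was in 0 of 4, 0 of 4 and 0 of 3 wells with Crabp2 at P7, P18 and P28. Uchl1 was in 3 of 13 wells with Crabp2 at P11, 2 of 4 at P18 and 1 of 1 at P42, and in 0 of those at P7, P14 and P28. Over all plates Anxa8 was found in 41.9% and 34.6%, and Slurp1 in 3.23% and 4.06%.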

How the data were processed

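Droplet libraries of the enthesis at P11, P18 and P56 and 7 plates of Gli1-lineage wells were used as deposited, in UMI or read counts per gene and cell with no normalization; per the file headers, matrix software 3.1.0 made those of P11 and P18 and 3.0.2 that of P56. The build was mm10 per the submitters' processing notes, and the aligner and annotation are not given in the sources used here. Each library is 1 pool of entheses, so p-values measure the spread between these 3 libraries, which may be technical.

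The cells and gene lists were chosen with earlier results of these data known. The cell filter asked for 500 or more genes and 10% or less mitochondrial UMIs. UMIs were summed per library over the cells of each set. Crabp2 Cd55 cells were compared with each comparison set by edgeR 4.0.16 (R 4.3.3, quasi-likelihood test, TMM scaling, library as a term, filterByExpr), with Benjamini-Hochberg adjustment over all genes tested and a threshold of 0.05. Because the 2 sums of a library come from the same digest and sort, the library term pairs them. The genes of the gates were left out of the tests. CPM values carry exact Poisson intervals and shares exact Clopper-Pearson intervals at 95% (scipy 1.17.1). Doublets were scored with scanpy 1.11.5 (Scrublet, expected rate 0.8% per 1000 cells) and kept. On simulated data with 200 of 10574 genes changed 4-fold, the Pdgfra Dcn comparison recovered 48.5% with 5 false calls.

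The text names Crabp2, Cd55, Uchl1, Perp and Pgf, the 20 largest rises and 10 largest falls against Pdgfra Dcn cells (adjusted p under 0.05, same sign in 3 libraries, at least 20 CPM in the higher set), the 8 largest differences each way between P11 and P56 (at least 100 UMIs, P18 between), and genes of the lists. Predicted, ribosomal and mitochondrial genes were skipped. The lists cover cell type markers (synovial lining, sublining, perineurial, mesothelial, keratinocyte, tendon, tendon sheath, chondrocyte, osteoblast, endothelial, mural, glial, leukocyte, muscle and erythroid) and pathways. Ccl19 and Cemip2 matched no row. Alternatives were other scaling, filters, gates, thinning to 2000 UMIs, DESeq2 1.42.0, no library term and each library left out. Some genes of the lists are counted but not reported here by name.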

Additional observations from a re-analysis of the deposited data

Results flagged for a closer look

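Kera, which encodes the small leucine-rich proteoglycan keratocan (GRCm38 chromosome 10, 97606879 to 97613692, plus strand), differed in opposite directions at the young and the adult age. At P11 it was at 102 CPM in Crabp2 Cd55 cells and 27.6 CPM in Pdgfra Dcn cells, a log2 difference of 1.89. At P56 it was at 7.68 CPM against 32.0 CPM, a log2 difference of -2.06. With 1 library at each age, the difference between the ages was not tested.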

How the results depend on the processing

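Against Pdgfra Dcn cells the main counts were 426 higher and 1092 lower genes. DESeq2 gave 90 and 482, at least 10 counts in every sum 69 and 90 (of 448 tested), and thinning to 2000 UMIs 111 and 341. Keeping Tnmd-bearing cells, chosen after seeing the data, gave 165 and 426. With each library left out, the counts ranged from 44 to 350 higher and 233 to 814 lower, lowest without P56. Without the block for library, which pairs the 2 sums of each library, 13 and 110 genes were called, and all 123 were among the main calls. Against Pi16 cells the fit without the block gave 18 and 50 and against Tnmd cells 179 and 377. Leaving out libraries gave 17 to 375 higher and 73 to 624 lower against Pi16 cells, and 296 to 512 and 569 to 1113 against Tnmd cells; these alternatives were also chosen after seeing the data.

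Of 152 named genes with a test, 5 changed sign with Tnmd-bearing cells kept: Angptl7 (log2 difference 1.93), Clu (0.0086), Fmod (0.70), Htra1 (0.20) and Timp3 (0.28). There the Pdgfra Dcn cells still held no Tnmd UMIs, so Tnmd-bearing cells were added on 1 side only. A rise of tendon genes such as Fmod follows from that choice of cells. Ccl7 was at 0.090 with a Crabp2 minimum of 1. Il11 was at -0.064 with DESeq2, -0.66 without the library block and ranged from -1.07 (without P56) to 1.63 with libraries left out. Klf5 ranged from -2.33 to 0.093 and Meox1 from -2.89 to 0.37, both highest without P56. Tspan15 was at -0.039 with a Crabp2 minimum of 4 and -0.53 with cells of 20 or more Prg4 UMIs left out. Apart from that choice of cells, the cause was not tested for any of these.

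The share of Crabp2 Cd55 cells was 3.12% (P11) and 8.41% (P56) with a cell filter of 1000 genes and 5% mitochondrial UMIs, and 3.05%, 0.148% and 8.36% at the 3 ages with a Crabp2 minimum of 1. A minimum of 4 gave 1.05% (P11) and 4.46% (P56), thinning first 0.208% and 1.91%, and keeping Tnmd-bearing cells 4.84%, 0.556% and 7.02%. In all of these P56 was highest. Genes higher and lower at P56 numbered 71 and 87 at a 2-fold threshold, 80 and 51 with P18 not used, 45 and 43 with a Crabp2 minimum of 1, and 61 and 76 with Tnmd-bearing cells kept. The stricter cell filter gave 36 higher. At P18 the 2 cells limit every value.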
